A study of Mus musculus with 16 samples.

Results

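The genes described here were 10 members of the poly(ADP-ribose) polymerase (PARP) family and its partners, taken by symbol from a table of 33072 mouse genes. They were chosen as 7 members known to be interferon-inducible (Parp9, Dtx3l, Parp14, Parp12, Parp11, Parp10 and Zc3hav1) and 3 members of DNA repair (Parp1, Parp2 and Parp3). RNA was sequenced from 4T1 and 67NR cells, isogenic BALB/c mammary carcinoma lines from the same spontaneous tumor, of which 4T1 cells metastasize and 67NR cells do not. Each line was given vehicle or 15 µM CIX, an inhibitor of the cytosolic phospholipase cPLA2α, for 24 h in medium with serum. The 4 groups (67NR vehicle, 67NR CIX, 4T1 vehicle, 4T1 CIX) held 4 biological replicates each, 16 in all, and each line was 1 established culture grown without a host, so that replicates measured repeated treatments of the same lines. By their labels the groups of a line differed in treatment, and no added transgene was named in the sources used here.

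PARP enzymes transfer ADP-ribose from NAD+ to proteins or nucleic acids. PARP1, PARP2 and PARP3 bind DNA strand breaks and recruit repair factors, whereas several other members are transcribed in response to interferon through the transcription factor complex ISGF3 and act in antiviral defence. PARP9 has little or no catalytic activity of its own and works in a complex with DTX3L, a ubiquitin ligase of the Deltex family. ZC3HAV1, also called ZAP or PARP13, binds CpG-rich viral RNA, has no ADP-ribosyl transferase activity and depends on TRIM25. In bulk RNA, fewer cells that express a gene and less RNA per cell cannot be told apart.

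Total estimated counts were between 21715700 and 29450629 per sample, so that 3 counts corresponded to between 0.102 and 0.138 CPM, counts scaled to a common library total. Levels of a gene are given as CPM, scaled over all 16 samples by the TMM method, with the SD over 4 samples. The labelled lines were compared with epithelial markers: the summed CPM of Krt8, Krt18, Epcam, Cdh1, Krt14 and Krt5 was between 2411 and 2763 in the 4T1 samples and between 1.07 and 5.19 in the 67NR samples, which thus nearly lacked them. Krt14 (0.548 CPM) and Krt5 (0.0103 CPM) were low in 4T1 vehicle samples as well. Of the mesenchymal markers, Vim was at 5077 CPM in 67NR vehicle and 1114 CPM in 4T1 vehicle samples, and Fn1 at 1272 and 1654 CPM. Pdgfrb was at 52.1 CPM in 67NR vehicle and 0.0103 CPM in 4T1 vehicle samples. Col1a1 (2.56 and 1.01 CPM) and Col1a2 (5.73 and 1.25 CPM) were low in vehicle samples of both lines. Ptprc, the pan-leukocyte marker, was at 1.22 CPM in 4T1 vehicle and 0.497 CPM in 4T1 CIX samples, and the 5 leukocyte markers summed to at most 1.68 CPM in any sample. Adgre1, a macrophage marker, was at 0 in every sample. The 3 endothelial markers summed to at most 2.69 CPM.

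Parp9 (ENSMUSG00000022906, chr16:35938470-35972605, plus strand), Dtx3l (ENSMUSG00000049502, chr16:35926511-35939151, minus strand) and Parp14 (ENSMUSG00000034422, chr16:35832874-35871544, minus strand) lie close together in the GENCODE annotation of GRCm38, with the pseudogene Gm10237 between Parp14 and Dtx3l. The starts of Parp9 and Dtx3l are 681 bases apart on opposite strands, and their exons overlap over 458 bases, 9.40% of the exon bases of Parp9 and 8% of those of Dtx3l. Whether the counting used strand was not given in the sources used here, so that reads from the overlap could have been assigned to either gene. Parp14 starts 67607 bases from Dtx3l.

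The remaining members lie apart. Parp12 (ENSMUSG00000038507, chr6:39086410-39118349, minus strand) and Zc3hav1 (ENSMUSG00000029826, chr6:38305286-38354603, minus strand) start 763746 bases apart, and Parp11 (ENSMUSG00000037997, chr6:127446840-127494261, plus strand) is on the same chromosome. Parp10 (ENSMUSG00000063268, chr15:76231174-76243441, minus strand) overlaps exons of Plec over 205 bases on the same strand, and transcripts of the latter hold 4.06% of the 31-base words of Parp10. Parp1 (ENSMUSG00000026496, chr1:180568924-180601254, plus strand), Parp2 (ENSMUSG00000036023, chr14:50807841-50821301, plus strand) and Parp3 (ENSMUSG00000023249, chr9:106470322-106476949, minus strand) are the repair members. Parp14 overlaps Gm49730 over 110 exon bases on the same strand, and apart from Parp10 no member shared more than 2.05% of its 31-base words with another gene.

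RefSeq promoter windows of 300 bases (250 before and 50 after a start, GRCm38.p6) were matched for 7 of the 10 members, in 8 windows since Parp11 has a pair. No window was matched for Parp9, Parp10 or Parp14, all interferon-inducible, so that these were not searched. The windows were searched on both strands for GAAANNGAAA, the core letters of an interferon-stimulated response element. These were present in 1 window, that of the upstream start of Parp11, on the reverse strand, and in none of the other 7. Of all 32851 windows, 3.44% held them, as did those of 10 of 23 other interferon-stimulated genes with a window. A match describes letters in this window and is not a measured site. Shown are 3 stretches that lie before the start and in no annotated exon, for the member with the motif, for a member of the chromosome 16 group without it and for a repair member without it, with motif letters in capitals.
Parp11, chr6:127446590-127446839, plus strand: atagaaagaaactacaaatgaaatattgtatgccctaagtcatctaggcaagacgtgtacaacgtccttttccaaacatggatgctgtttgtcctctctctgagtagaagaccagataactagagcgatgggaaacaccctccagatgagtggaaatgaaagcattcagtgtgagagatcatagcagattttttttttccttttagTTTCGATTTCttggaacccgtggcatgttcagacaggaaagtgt
Dtx3l, chr16:35939207-35939277, minus strand: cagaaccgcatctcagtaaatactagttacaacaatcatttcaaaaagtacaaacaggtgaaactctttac
Parp1, chr1:180568641-180568890, plus strand: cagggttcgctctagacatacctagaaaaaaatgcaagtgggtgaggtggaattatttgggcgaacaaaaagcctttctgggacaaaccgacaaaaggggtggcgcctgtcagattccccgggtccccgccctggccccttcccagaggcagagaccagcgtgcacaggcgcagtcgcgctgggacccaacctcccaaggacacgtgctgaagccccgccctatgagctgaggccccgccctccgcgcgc

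In vehicle cells the lines differed in interferon-inducible members, and the 3 members on chromosome 16 differed most. Parp9 was measured at 98.6, 112, 114 and 134 CPM in 4T1 vehicle samples 3, 7, 11 and 15. In 67NR vehicle samples 1, 5, 9 and 13 it was at 0.356, 0.356, 0.357 and 0.212 CPM, which were between 5 and 9 estimated counts. Its 67NR level was thus close to the level of 3 counts. Dtx3l was at 76.7, 102, 106 and 131 CPM in the same order of 4T1 vehicle samples, and at 0.752, 0.489, 0.475 and 0.510 CPM in 67NR vehicle samples. Parp14, a mono-ADP-ribosyl transferase with macrodomains, was at 108, 123, 116 and 214 CPM in 4T1 vehicle samples. In 67NR vehicle samples Parp14 was at 1.07, 1.07, 1.07 and 0.807 CPM. No 67NR sample reached the lowest 4T1 sample for any of the 3 genes. The share of all genes whose groups were apart in this way between the lines is not given here.

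The limma-voom test between the lines covered 11040 genes, of which 20.4% were higher and 19.6% lower in 4T1 vehicle cells at an adjusted p below 0.001, the threshold used for calls here. The filter for that test left out genes with a TPM (level per transcript length) below 1 in more than 3 of the 8 samples, which removed Parp9, Dtx3l and Parp14 because of their level in 67NR cells. No test of the line difference is given for these 3 genes, whose 67NR vehicle samples held 5 to 27 estimated counts each.

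Of the 4 interferon-inducible members tested, 2 were higher in 4T1 vehicle cells. Parp12, which localizes to the Golgi and stress granules, was at 74.8, 56.8, 45.9 and 95.7 CPM in 4T1 vehicle samples and at 6.37, 6.71, 5.43 and 4.25 CPM in 67NR vehicle samples (11.6-fold, log2 difference 3.54, SE 0.311, limma-voom adjusted p = 9.31e-06). Zc3hav1 was at 162, 177, 166 and 225 CPM against 111, 109, 105 and 98.6 CPM (1.70-fold, limma-voom adjusted p = 2.10e-04). The groups of both genes did not overlap, for which no share over all genes is given either. Zc3hav1 passed 0.001 in 5 of the 8 fits that left out 1 sample, and did not without 67NR vehicle sample 5, 9 or 13 (limma-voom adjusted p up to 0.00129).

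At a threshold of 0.05, which 33.3% of all genes passed as higher and 34.1% as lower, Parp11 was also higher in 4T1 vehicle cells (log2 difference 1.07, SE 0.243, limma-voom adjusted p = 0.00366) and Parp10 lower (log2 difference -0.36, SE 0.14, limma-voom adjusted p = 0.0449). The groups of Parp10, a mono-ADP-ribosyl transferase, overlapped, and it passed 0.05 in 3 of 8 fits that left out 1 sample. None of the 3 repair members was called. Their log2 differences were 0.30 for Parp1, -0.12 for Parp2 and -0.08 for Parp3, and the groups of each overlapped.

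**Figure D1:**
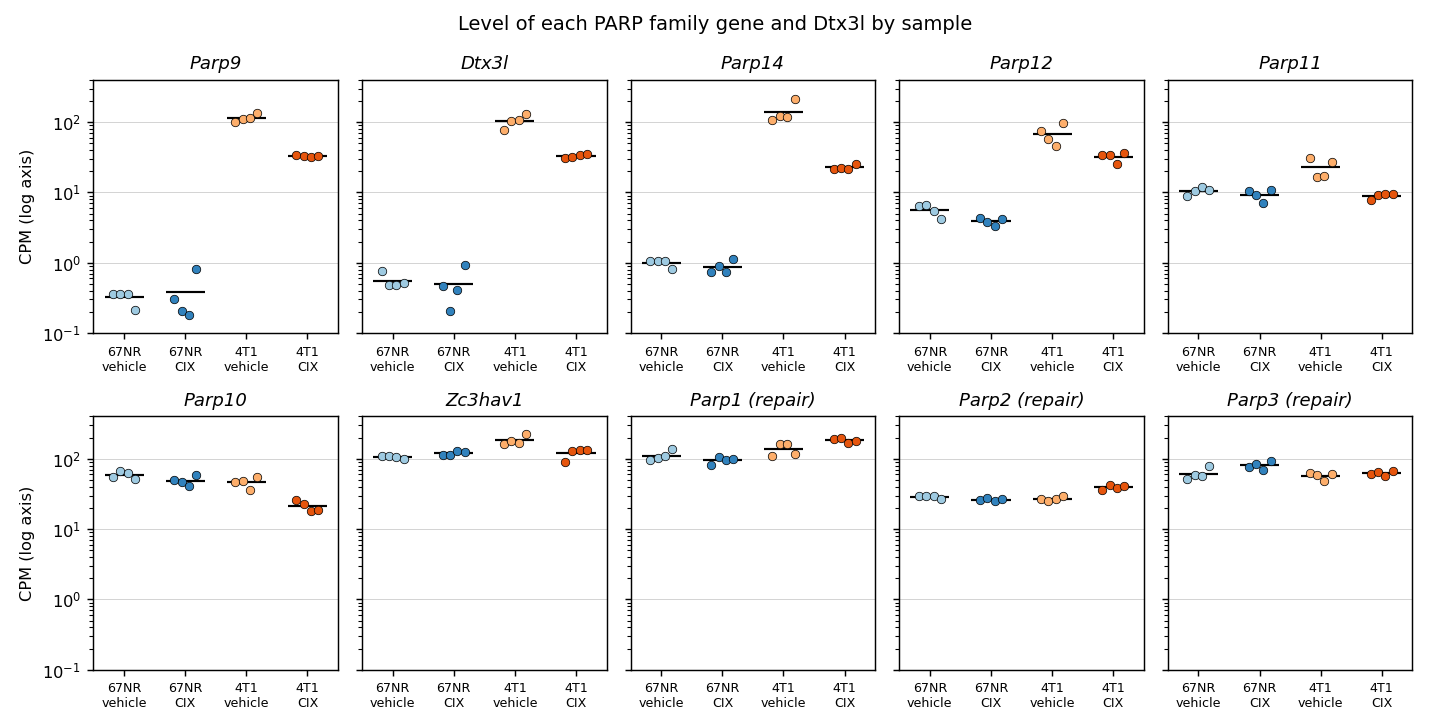
Level of each gene in CPM (log axis) in the 4 groups; each point is 1 sample and each line the mean of 4 samples. Parp9, Dtx3l and Parp14 were at or near 1 CPM or below in the 67NR samples and at 76.7 CPM or higher in every 4T1 vehicle sample, whereas the 3 repair members were between 24.9 and 195 CPM in all samples.

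In 4T1 cells, CIX was accompanied by lower levels of all 7 interferon-inducible members. The test covered 11659 genes, of which 5.35% were higher and 3.99% lower with CIX. Parp14, Parp9, Dtx3l and Parp10 fell, 4 of the 7, and the 3 others did not pass 0.001 but passed 0.05, as did 20.8% of all genes in that direction. The median log2 fold change of the 7 members was -1.32, beside -0.01 over all genes tested. Of all 10 members, 9 had groups that did not overlap, against 40.0% of all genes tested. Markers of cell state moved with CIX in the same samples: Vim, a mesenchymal marker, rose from 1114 to 2670 CPM (log2 fold change 1.24, limma-voom adjusted p = 4.25e-05) and Epcam, an epithelial marker, fell from 315 to 186 CPM (-0.78, limma-voom adjusted p = 1.27e-04). The other epithelial markers tested were not called, with Krt8 at 0.43, Krt18 at 0.14 and Cdh1 at -0.29 on the log2 scale, and the summed level of the epithelial markers was between 2411 and 2608 CPM in vehicle and between 2519 and 2763 CPM in CIX samples. Fn1 was not called, the leukocyte markers were too low to be tested, and the part of these markers in the result was not tested.

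Parp14 fell furthest. Its 4T1 CIX samples 4, 8, 12 and 16 were at 21.3, 22.5, 21.7 and 25.5 CPM, all below the lowest vehicle sample at 108 CPM (log2 fold change -2.59, SE 0.224, limma-voom adjusted p = 7.36e-05). The mean was 6.01-fold lower by the fit. Vehicle sample 15, at 214 CPM, stood above the 3 other vehicle samples, and without it the log2 fold change was -2.37 (SE 0.114).

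Parp9 and its partner Dtx3l fell together. Parp9 was at 33.9, 32.9, 31.8 and 33.2 CPM in the 4T1 CIX samples, 3.50-fold below vehicle (log2 fold change -1.81, SE 0.112, limma-voom adjusted p = 4.25e-05). Dtx3l was at 30.5, 32.2, 34.0 and 34.7 CPM, 3.15-fold below vehicle (log2 fold change -1.65, SE 0.16, limma-voom adjusted p = 1.13e-04). The 4 CIX samples lay close together for both genes, with an SD of 0.843 CPM for Parp9 and 1.87 CPM for Dtx3l, against 14.4 and 22.2 CPM in vehicle samples. The ratio of Parp9 to Dtx3l in CPM was 1.12 ± 0.115 (SD, n = 4) in vehicle and 1.01 ± 0.0774 in CIX samples, ranges that overlapped. The ratio of Parp14 to Parp9 in CPM was 1.203 ± 0.267 (SD, n = 4) in vehicle and 0.690 ± 0.0564 in CIX samples, and these ranges did not overlap.

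Parp10 was at 47.5, 47.6, 36.0 and 54.7 CPM in 4T1 vehicle samples and fell to 26.3, 23.0, 18.1 and 18.5 CPM with CIX (log2 fold change -1.14, SE 0.172, limma-voom adjusted p = 8.91e-04). The call was close to the threshold and was kept in 2 of the 8 fits that left out 1 sample, those without vehicle sample 11 or CIX sample 4, with limma-voom adjusted p up to 0.00385 in the others. It was also lost with limma on log2(TPM + 1) (adjusted p = 0.00114) and with no filter (limma-voom adjusted p = 0.00107). Plec, which shares exon bases with Parp10, was at 200.9 CPM in vehicle and 223 CPM in CIX samples.

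Parp11, a mono-ADP-ribosyl transferase of the nuclear envelope, had vehicle samples at 31.1, 16.5, 17.2 and 26.8 CPM and CIX samples at 7.84, 9.09, 9.44 and 9.58 CPM (log2 fold change -1.32, SE 0.239, limma-voom adjusted p = 0.00216). Parp12 was at 33.5, 34.4, 25.1 and 35.8 CPM with CIX, below its lowest vehicle sample at 45.9 CPM (log2 fold change -1.07, SE 0.229, limma-voom adjusted p = 0.00507). Zc3hav1 was at 90.4, 128, 134 and 135 CPM with CIX, where sample 4 was the lowest (log2 fold change -0.61, SE 0.155, limma-voom adjusted p = 0.0117). Zc3hav1 had the smallest difference of the 7, and it kept an adjusted p below 0.05 in all 8 fits that left out 1 sample. Without sample 4 its log2 fold change was -0.47.

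Vehicle sample 15 was the highest of the 4T1 vehicle samples for 6 of the 7 interferon-inducible members, and for 27 of 30 other interferon-stimulated genes. Parp11 was highest in sample 3. CIX sample 16 was the highest 4T1 CIX sample for 5 of the 7 members, and CIX sample 14 the highest 67NR CIX sample for 5 of 7. The summed CPM of the 7 members was 599, 635, 602 and 881 in 4T1 vehicle samples 3, 7, 11 and 15, and between 244 and 293 in the CIX samples. Without sample 15, Parp9, Dtx3l and Parp14 stayed below 0.001 and Parp10 did not (limma-voom adjusted p = 0.00305).

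None of the repair members passed 0.001 in 4T1 cells by limma-voom, and 2 of 3 were higher at 0.05, as were 21.9% of all genes. Parp2 passed 0.001 with DESeq2 (adjusted p = 1.14e-05), with sample weights (limma-voom adjusted p = 4.72e-04) and in the common fit of all 16 samples (limma-voom adjusted p = 5.16e-05). Parp2 was at 26.6, 24.9, 26.4 and 29.4 CPM in vehicle samples and at 36.0, 42.2, 38.2 and 41.2 CPM with CIX, 1.45-fold higher without overlap (log2 fold change 0.54, SE 0.105, limma-voom adjusted p = 0.00321). Parp1, the most abundant nuclear PARP, was at 111, 163, 160 and 119 CPM in vehicle samples and at 190, 195, 170 and 178 CPM with CIX (log2 fold change 0.41, SE 0.137, limma-voom adjusted p = 0.0367). Parp1 passed 0.05 in 2 of 8 fits that left out 1 sample, those without vehicle sample 7 or 11 (limma-voom adjusted p up to 0.0999 in the others). Parp3 was at 62.6, 59.7, 47.7 and 61.2 CPM in vehicle and at 61.2, 65.3, 57.1 and 67.9 CPM in CIX samples, and the groups overlapped (log2 fold change 0.11, SE 0.117).

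Levels between members were compared per transcript length, as TPM. In 4T1 vehicle samples the 7 interferon-inducible members together made up 54.5% ± 5.88 (SD, n = 4) of the summed TPM of the 10 genes, with a range of 49.8% to 62.3%. With CIX they made up 26.8% ± 1.28, close to the 27.4% ± 3.58 of 67NR vehicle and the 27.0% ± 1.87 of 67NR CIX samples. With the longest transcript of each gene, a length chosen after the data were seen, these shares were 68.4% ± 4.31 in 4T1 vehicle, 41.7% ± 1.61 in 4T1 CIX, 41.2% ± 4.35 in 67NR vehicle and 40.1% ± 1.97 in 67NR CIX samples. The share thus depended on the length used, and with either length the 4T1 vehicle samples lay above all others. Parp1 had the highest TPM in all 4 groups with the mean transcript length, at 187 ± 33.3 in 4T1 vehicle and 233 ± 17.4 in 4T1 CIX samples. In 4T1 vehicle samples Parp9 (90.5 ± 14.0 TPM), Zc3hav1 (66.1 ± 12.9 TPM), Parp3, Parp14, Parp12, Parp2, Dtx3l, Parp10 and Parp11 (20.2 ± 6.69 TPM) followed. The sample ranges of neighbours in that order overlapped, apart from those of Parp1 and Parp9 and of Zc3hav1 and Parp3. In 4T1 CIX samples Parp9 was at 24.4 ± 0.859 TPM, below Parp1, Parp3, Parp2 and Zc3hav1 and above Parp12, Parp10, Dtx3l, Parp11 and Parp14 (7.09 ± 0.624 TPM), and the ranges of Parp3, Parp2 and Zc3hav1 overlapped in turn. In 67NR vehicle samples the order was Parp1, Parp3, Parp10, Zc3hav1, Parp2, Parp11, Parp12, Parp14, Parp9 and Dtx3l, where Parp10, Zc3hav1 and Parp2 overlapped in turn, as did the last 3. In 67NR CIX samples Zc3hav1 and Parp2 came before Parp10, and Parp9 before Parp14. With the longest transcript of each gene, Zc3hav1 (80.3 TPM) and Parp1 (76.9 TPM) were the highest in 4T1 vehicle samples, and Parp3 was the highest in 67NR CIX samples, so that the order among the highest genes depended on the length used.

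**Figure D2:**
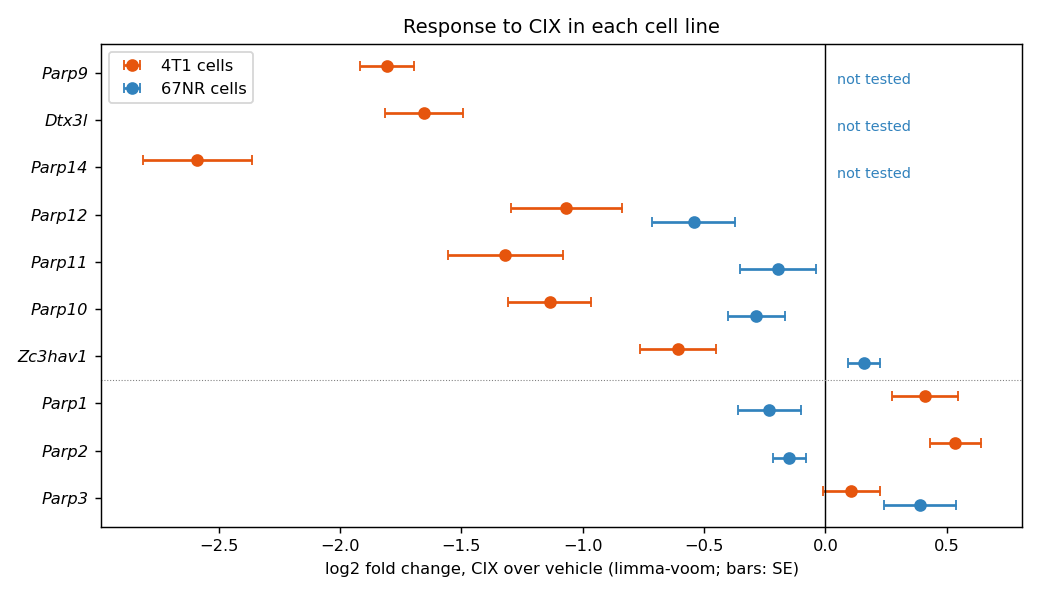
Log2 fold change of CIX over vehicle with its SE for each gene in 4T1 cells (orange) and 67NR cells (blue), with the 3 repair members under the dotted line; Parp9, Dtx3l and Parp14 were too low in 67NR cells to be tested. All 7 interferon-inducible members were left of 0 in 4T1 cells, from -2.59 for Parp14 to -0.61 for Zc3hav1, and the 3 repair members were right of 0.

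In 67NR cells no member was called with CIX by limma-voom, at 0.001 or at 0.05, of 7 tested. At 0.001 edgeR and DESeq2 called 0 as well. At 0.05 Parp12 passed with edgeR (adjusted p = 0.0477), DESeq2 (adjusted p = 0.0272) and limma-voom with sample weights (adjusted p = 0.0170), and Parp3 passed with those weights (limma-voom adjusted p = 0.0119). By limma-voom, 4 members had an unadjusted limma-voom p below 0.05 (Parp10, Parp12, Zc3hav1 and Parp3). Of 11560 genes tested, 0.182% were higher and 0.208% lower at 0.001, and 8.51% and 9.26% at 0.05. Parp10 was at 54.4, 66.7, 63.1 and 51.3 CPM in 67NR vehicle samples 1, 5, 9 and 13 and at 49.99, 47.2, 40.6 and 58.4 CPM in CIX samples 2, 6, 10 and 14, which overlapped (log2 fold change -0.28, SE 0.118). Parp12 came closest to the threshold, with CIX samples at 4.31, 3.84, 3.28 and 4.18 CPM (log2 fold change -0.54, SE 0.171, limma-voom adjusted p = 0.0587). Parp11 was at 8.83, 10.6, 11.8 and 10.9 CPM in vehicle and at 10.3, 9.33, 7.02 and 10.7 CPM in CIX samples (log2 fold change -0.20, SE 0.155). The groups of all 3 genes overlapped, those of Parp12 through vehicle sample 13 at 4.25 CPM.

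Zc3hav1 was the one of the 7 members tested whose 67NR groups did not overlap, which held for 23.3% of all genes tested. Its vehicle samples were at 111, 109, 105 and 98.6 CPM and its CIX samples at 115, 111, 127 and 127 CPM (log2 fold change 0.16, SE 0.067, limma-voom adjusted p = 0.135). Parp9 with CIX was at 0.308, 0.206, 0.182 and 0.827 CPM, Dtx3l at 0.462, 0.206, 0.410 and 0.914 CPM, and Parp14 at 0.732, 0.908, 0.729 and 1.13 CPM. CIX sample 14 was the highest for all 3, with 19 to 26 estimated counts, and the groups of each gene overlapped. With the filter passed in either line, their log2 fold changes were -0.01 (SE 0.477) for Parp9, -0.33 (SE 0.423) for Dtx3l and -0.23 (SE 0.229) for Parp14, which rest on 4 to 27 estimated counts per sample.

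The repair members had log2 fold changes of -0.23 (SE 0.131) for Parp1, -0.15 (SE 0.0682) for Parp2 and 0.39 (SE 0.149) for Parp3 in 67NR cells. Parp3 was at 51.9, 57.9, 56.6 and 79.1 CPM in vehicle samples and at 76.3, 83.9, 69.3 and 93.3 CPM in CIX samples, with vehicle sample 13 within the CIX range. Without sample 13 the limma-voom adjusted p was 0.0123 for Parp3 and 0.0221 for Parp12, and both were then past 0.05. Sample 13 was also the highest vehicle sample of Parp1, at 136 CPM against 95.6, 102 and 109 CPM.

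The interaction of CIX and cell line tests whether the response differed between the lines, over 12605 genes and all 16 samples. A positive value is a response more positive in 4T1 than in 67NR cells, and 4.81% of all genes were called with a positive and 3.05% with a negative value. Among the members, Parp2 was called (interaction 0.68 on the log2 scale, SE 0.117, limma-voom adjusted p = 4.87e-04), with a response of 0.54 in 4T1 and -0.15 in 67NR cells. Its adjusted p was above 0.001 in 11 of the 16 fits that left out 1 sample, with a highest value of 0.00161. The call was kept without 4T1 vehicle sample 3 or 15, 4T1 CIX sample 4 or 12, or 67NR vehicle sample 13. It was lost with limma on log2(TPM + 1) (adjusted p = 0.00329) and with library size only (limma-voom adjusted p = 0.00133).

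At 0.05, which 15.1% of genes passed with a positive and 14.2% with a negative value, 5 of the 7 members tested in both lines passed. Parp1 was positive (0.64, SE 0.191, limma-voom adjusted p = 0.0193), as was Parp2. Negative were Parp11 (-1.12, SE 0.309, limma-voom adjusted p = 0.0126), Parp10 (-0.85, SE 0.217, limma-voom adjusted p = 0.00781) and Zc3hav1 (-0.77, SE 0.18, limma-voom adjusted p = 0.0047). A difference between the lines was not shown for Parp12 (-0.53, SE 0.409, limma-voom adjusted p = 0.369) or Parp3 (-0.28, SE 0.186, limma-voom adjusted p = 0.284). Parp9 (-1.80, SE 0.486), Dtx3l (-1.32, SE 0.57) and Parp14 (-2.36, SE 0.599) entered the fit through their level in 4T1 cells alone. Their 67NR response rests on 4 to 27 estimated counts per sample, and no call is read for them.

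The other genes of the interferon response were examined as lists that were chosen, like the members, with earlier results of these data known. Of 30 other interferon-stimulated genes, 26 were tested in 4T1 cells, of which 15 fell at 0.001 and 25 at 0.05, with a median log2 fold change of -1.999. The largest differences were those of Ifi44 (-4.57, limma-voom adjusted p = 0.00138), Usp18, which removes ISG15 from proteins (-3.99, limma-voom adjusted p = 4.72e-04), Isg15 itself (-3.69, limma-voom adjusted p = 1.05e-04) and the antiviral GTPase gene Mx2 (-3.57, limma-voom adjusted p = 0.00193). These 4 genes were named for the largest differences of the list and do not stand for all of it. Beside its median, Parp14 (-2.59) had a larger difference and the other members had smaller ones. In 67NR cells 18 of the list were tested, 0 passed 0.001 and 4 were lower at 0.05. Ifit3 had the largest difference there (-1.51, limma-voom adjusted p = 0.00111), and Usp18 followed (-1.26, limma-voom adjusted p = 0.127).

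Of 8 genes of ISGF3 and the IRF factors, all were tested in 4T1 cells, with 2 lower and 1 higher at 0.001. Irf7 fell from 51.6 ± 20.6 to 7.58 ± 2.04 CPM (log2 fold change -2.76, limma-voom adjusted p = 2.76e-04) and Irf9, the DNA-binding subunit of ISGF3, from 67.0 ± 14.9 to 20.7 ± 1.59 CPM (-1.69, limma-voom adjusted p = 1.40e-04). Irf3 rose from 15.9 ± 2.01 to 39.4 ± 6.25 CPM (1.28, limma-voom adjusted p = 2.97e-04). Stat2 was lower in 4T1 cells at 0.05 (-0.79, limma-voom adjusted p = 0.00454) and higher in 67NR cells at 0.05 (0.61, limma-voom adjusted p = 0.0106), and its interaction was called (-1.40, limma-voom adjusted p = 2.53e-04). Irf1 was lower at 0.05 in 67NR cells as well (-0.47, limma-voom adjusted p = 0.0467).

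The 7 cofactors of ZAP had differences in both directions. Trim25, the ubiquitin ligase on which ZAP depends and also 1 of the 30 interferon-stimulated genes above, fell from 301 ± 37.9 to 120.3 ± 9.75 CPM in 4T1 cells (log2 fold change -1.34, limma-voom adjusted p = 6.70e-05), and its interaction was called (-1.51, limma-voom adjusted p = 4.92e-06). Dhx30, an RNA helicase, rose from 138 ± 34.4 to 435 ± 163 CPM (1.60, limma-voom adjusted p = 9.59e-04). N4bp1 (-0.25), Dis3 of the RNA exosome (-0.20) and the other 3 did not pass 0.05. In 67NR cells Ddx17 was higher at 0.05 (0.34, limma-voom adjusted p = 0.0129), and Dhx30 was at 0.36 (limma-voom adjusted p = 0.513).

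**Figure D3:**
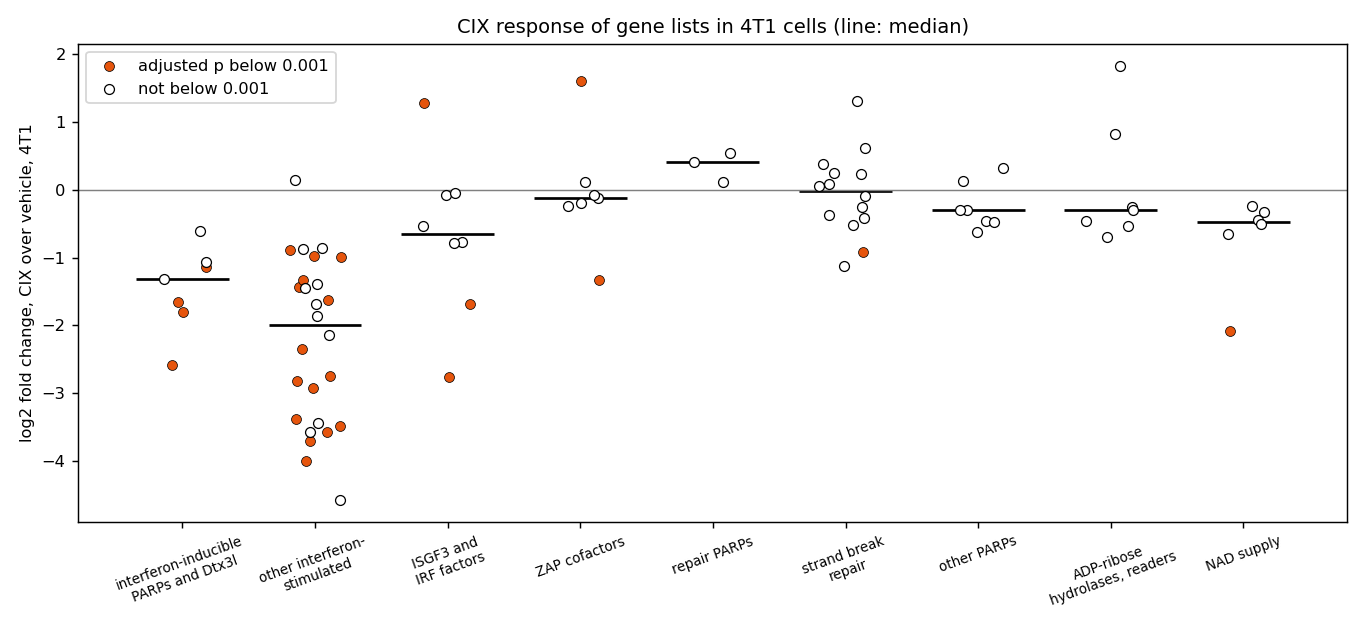
Log2 fold change of CIX over vehicle in 4T1 cells for each tested gene of 9 lists; filled points had an adjusted p below 0.001 and the line is the median. The median was -1.32 for the interferon-inducible members, -1.999 for the other interferon-stimulated genes and 0.41 for the repair members.

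Among 7 other PARP family genes, 0 were called in 4T1 cells and 2 were lower at 0.05, with a median log2 fold change of -0.31. These were Parp8 (-0.46, limma-voom adjusted p = 0.00677) and Parp16, an enzyme of the endoplasmic reticulum (-0.48, limma-voom adjusted p = 0.0183). Tiparp, a target of the aryl hydrocarbon receptor, was at -0.62 (limma-voom adjusted p = 0.107) and the tankyrase gene Tnks at 0.33 (limma-voom adjusted p = 0.374). In 67NR cells Parp8 was higher at 0.05 (0.51, limma-voom adjusted p = 0.00705), Parp4 was at 0.49 (limma-voom adjusted p = 0.0858), and the interaction of Parp8 was called (-0.98, limma-voom adjusted p = 1.05e-04). In vehicle cells 5 of these 7 genes were called higher in 4T1 cells, Parp16 by 3.40 on the log2 scale.

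Of 14 genes of strand break repair that work with PARP1, 1 fell at 0.001 in 4T1 cells, 2 were higher and 4 lower at 0.05, and the median was -0.02. The gene that fell was Pcna, the sliding clamp (-0.92, limma-voom adjusted p = 5.64e-04), and the flap endonuclease gene Fen1 was lower at 0.05 (-1.13, limma-voom adjusted p = 0.00531). The DNA ligase gene Lig1 (1.31, limma-voom adjusted p = 0.00147) and Chd1l, a remodeller that binds poly(ADP-ribose) (0.61, limma-voom adjusted p = 0.0016), were higher at 0.05. In 67NR cells 7 of the 14 were lower at 0.05, with Fen1 at -0.92 (limma-voom adjusted p = 0.0028) and Pcna at -0.89 (limma-voom adjusted p = 0.00398). Of the 14 interactions 4 were called, those of Lig1 (2.15, limma-voom adjusted p = 2.12e-05), Timeless (1.11, limma-voom adjusted p = 1.85e-04) and Chd1l (0.64, limma-voom adjusted p = 4.12e-04) with a positive and that of Xrcc5 (-0.64, limma-voom adjusted p = 5.68e-04) with a negative value.

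Genes that remove or read ADP-ribose had differences in both directions. Of 7 hydrolase and reader genes tested in 4T1 cells, 0 were called and 2 were higher and 3 lower at 0.05. Macrod1 (1.82, limma-voom adjusted p = 0.00361) and Adprhl2 (0.82, limma-voom adjusted p = 0.003) were higher at 0.05, whereas Adprh (-0.69, limma-voom adjusted p = 0.00159) and Nudt5 (-0.54, limma-voom adjusted p = 0.00465) were lower at 0.05. In 67NR cells Nudt16 was at 0.42 (limma-voom adjusted p = 0.324) and Oard1 lower at 0.05 (-0.34, limma-voom adjusted p = 0.0164). All 6 NAD+ genes tested in 4T1 cells had negative values, with a median of -0.48. Nmnat2 fell (-2.09, limma-voom adjusted p = 3.20e-04), Nadsyn1 was lower at 0.05 (-0.65, limma-voom adjusted p = 0.00482), and Nmrk1 (-0.50) and Nmnat3 (-0.45) did not pass 0.05. None of the 5 tested in 67NR cells passed 0.05, with Nadsyn1 at -0.46 and Nmrk1 at 0.31.

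The genes around the members on the chromosome were measured beside them. In 4T1 cells, 28 genes that are no members and start within 200 kb of an interferon-inducible member were tested, of which 3 rose and 0 fell at 0.001, 8 were higher and 5 lower at 0.05, and the median log2 fold change was 0.02. Around Parp9, Dtx3l and Parp14, 6 genes were tested, and 0 were called at 0.001 and 2 were lower at 0.05. Kpna1, an importin gene that starts 39599 bases from Dtx3l, was at 0.24 (limma-voom adjusted p = 0.177). Wdr5b was at -1.17 (limma-voom adjusted p = 0.00868) and Fam162a at -1.03 (limma-voom adjusted p = 0.00313). Ccdc58 (-0.01), Hspbap1 (-0.34) and Dirc2 (-0.10) did not pass 0.05. All 6 were above 1 CPM in 67NR vehicle cells, with means from 9.53 CPM for Wdr5b to 51.9 CPM for Fam162a.

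**Figure D4:**
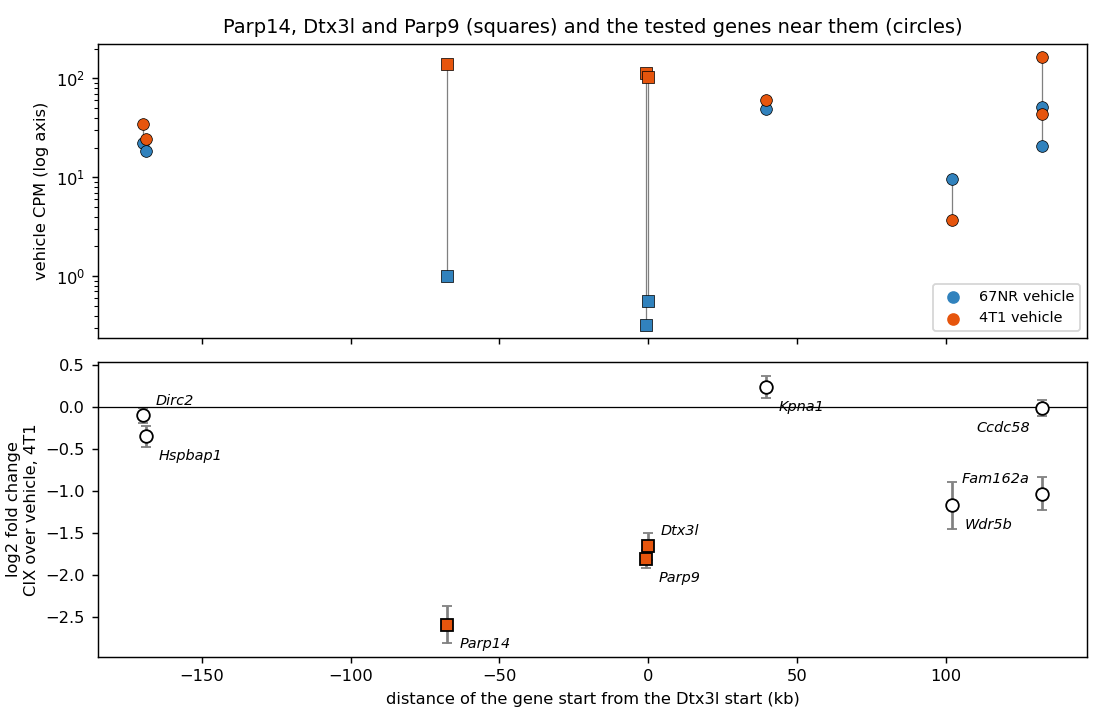
Genes by the distance of their start from the Dtx3l start (kb): mean CPM in vehicle cells of both lines on a log axis (top), and log2 fold change of CIX over vehicle in 4T1 cells with its SE (bottom); squares are members and circles the tested genes near them. The 3 squares were at or near 1 CPM or below in 67NR cells and fell in 4T1 cells, whereas the 6 circles were expressed in both lines.

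Likeness to the members was measured as the root mean square (RMS) difference between log2 CPM profiles, each centred on its own mean, over the 16 samples and 12605 genes. The mean profile of the 7 interferon-inducible members was nearest to that of Parp12 (RMS difference 0.269). The 5 nearest genes that are no members were Helz2 (0.333), Slc38a1 (0.355), Padi1 (0.366), Map3k13 (0.369) and Rpia (0.385). Helz2, a helicase gene, was at 6.15 CPM in 67NR vehicle, 119.9 CPM in 4T1 vehicle and 40.9 CPM in 4T1 CIX samples. The 6 other members were farther from the mean profile, with RMS differences from 1.32 for Parp14 to 2.09 for Parp9. The RMS size of the mean profile itself was 1.78, so that Parp9 and Parp10 (2.08) were farther from it than a flat profile would be. Among pairs of interferon-inducible members, Parp11 and Zc3hav1 (0.396) and Parp9 and Dtx3l (0.463) were the nearest, and Parp9 and Parp10 were the farthest apart at 4.17. Pairs across the roles were as near, with Zc3hav1 at 0.445 from Parp2, 0.465 from Parp3 and 0.486 from Parp1. Parp10 was nearest to Parp3 (0.611). The 67NR values of Parp9, Dtx3l and Parp14, which enter the mean profile, rest on 4 to 27 estimated counts per sample. The genes nearest to the mean profile of the 3 repair members were Sf1 (0.104), Mau2 (0.12) and Ilkap (0.123), and the RMS size of that profile was 0.191.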

How the data were processed

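RNA of 4T1 and 67NR cells given vehicle or CIX was sequenced from TruSeq Stranded mRNA libraries. The authors quantified reads with salmon (version 0.12 in the submitters' processing notes) with GRCm38 transcripts from Ensembl and used tximport for gene totals. The deposited values are estimated counts, not normalized. The processing notes name GRCh38 as the build, whereas all gene identifiers are of mouse. The scaling in tximport was not given in the sources used here.

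Samples were grouped by their labels. Estimated counts were rounded, TPM was approximated from the mean transcript length of GENCODE vM21, and a gene was left out of a comparison where over 3 of its samples had TPM under 1 (for the interaction, in both lines). TMM factors and limma-voom (limma 3.58.1, edgeR 4.0.16, R 4.3.3) were applied to all remaining genes. A call needed a p below 0.001 after Benjamini-Hochberg adjustment, with 0.05 as a looser threshold. Alternatives were edgeR's quasi-likelihood test, DESeq2 1.42.0, limma on log2(TPM + 1), other scalings and filters, sample weights, all 16 samples in a common fit and leaving out each sample in turn. The filter passed in either line and TPM by the longest transcript (for the order and the share of members) were added after the data were seen. P-values set a difference against the spread between these samples, which are repeated treatments of the same lines. The functions were tested on simulated data. Total estimated counts of 21715700 to 29450629 per sample limit low genes, and the level of 3 counts covers counting error only.

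Members and lists were chosen with earlier results of these data known. Named were all members, the 4 genes of each list with the largest log2 fold change in 4T1 cells and the 2 in 67NR cells among genes tested, up to 6 neighbours and the 5 and 3 genes most like the mean profiles. Marker genes, Plec, Gm49730, Gm10237 and interaction values of listed genes were chosen after their values were seen. Promoter sequences are from RefSeq (GRCm38.p6). Another motif that was searched is not reported here.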

Additional observations from a re-analysis of the deposited data

Results flagged for a closer look

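Samples were examined in each of the 4 groups for the 10 genes, 40 sets of 4 samples, with Dixon's ratio of the gap to the range at its 95% critical value, which chance passes in about 1 in 20 sets, 2 of the 40. The value of 1 sample stood apart in 6 sets. In 67NR vehicle cells, sample 13 was the lowest for Parp9 (0.212 CPM, the others 0.356 to 0.357 CPM), Parp14 (0.807 CPM, the others 1.07 CPM) and Parp2 (26.6 CPM, the others 29.4 to 29.8 CPM), and sample 1 was the highest for Dtx3l (0.752 CPM, the others 0.475 to 0.510 CPM). The Parp9, Parp14 and Dtx3l values in these 67NR vehicle samples rest on 5 to 27 estimated counts each. In 4T1 vehicle cells, sample 15 was the highest for Parp14 (213.7 CPM, the others 108 to 123 CPM). In 4T1 CIX cells, sample 4 was the lowest for Zc3hav1 (90.4 CPM, the others 128 to 135 CPM).

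The response of Parp2 to CIX differed between the lines, with an interaction of 0.68 on the log2 scale (limma-voom adjusted p = 4.87e-04, above 0.001 in 11 of 16 fits without 1 sample and 0.00329 with limma on log2(TPM + 1)). It was higher with CIX in 4 of 4 samples of 4T1 cells than in any vehicle sample.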

How the results depend on the processing

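The 67NR response had 0 members called at 0.001 under every setting run. In 4T1 cells, 4 members were called as reported, 9 at a threshold of 0.05 (7 lower, 2 higher), 7 with DESeq2 and with all 16 samples in a common fit (6 lower, and Parp2 higher), 5 with sample weights (4 lower, and Parp2 higher), and 3 with limma on log2(TPM + 1) and with no filter, where Parp10 was lost, with counts of 3 to 4 when 1 sample was left out. In the interaction, 1 member was called as reported, 7 at 0.05, 6 with DESeq2, 3 with limma on log2(TPM + 1), 2 with edgeR and with sample weights, 0 with library size only, and 0 to 2 when 1 sample was left out. Between the vehicle lines, 2 members were called as reported, 4 at 0.05, 5 with no filter, with filterByExpr and with the filter passed in either line (added after the data were seen), 6 in the common fit of all 16 samples, and 2 to 5 when 1 sample was left out, where leaving out a 67NR sample let Parp9, Dtx3l and Parp14 pass the filter. Of the 5 or 6, 3 were these genes, which entered through their 4T1 level alone and support nothing. Without them the count was 2, and 3 in the common fit, where Parp11 was called, as it was with DESeq2 (3 called). The interaction counts include them too: 2 of the 7 at 0.05, all 3 called with limma on log2(TPM + 1), where Parp2 was lost, 3 of the 6 with DESeq2, 1 of the 2 with edgeR, and 1 of the 2 without 4T1 vehicle sample 15.

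Of the members tested as reported, no fold change turned in either CIX response or in the interaction. Parp9 in 67NR cells, not tested as reported, was at -0.0095 with the filter passed in either line, 0.0096 with no filter and 0.0097 in the common fit. Between the vehicle lines, Parp3, at -0.08, was at 0.0115 with limma on log2(TPM + 1) and 0.0350 with sample weights, and from -0.2038 to 0.0518 without 1 sample, above 0 without 4T1 vehicle sample 11 (0.0518) or 67NR vehicle sample 13 (0.0014). The cause of these differences was not tested, apart from the filters, which set how many members were tested. No paired analysis was run, because no label ties samples of different groups to a shared culture or day. Each run of 4 consecutive sample numbers holds 1 sample of every group, and a block by such runs was not tested. Depth limits Parp9, Dtx3l and Parp14 in 67NR cells, where 4 to 27 counts per sample were assigned to each.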
